A study of Mus musculus with 20 samples.

Results

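The 40 homeodomain genes described here, of 53801 genes in the count tables, are known from hypothalamic regions and neurons and were taken by symbol from a list, without a threshold on their values. Of the 40, 38 had enough counts to be tested. The 20 libraries were made from hypothalamic total RNA after removal of rRNA, and kept the strand. The 5 KO night and 5 KO day libraries came from mice with the double deletion, a line called MADIN modelling Prader-Willi syndrome. The 5 WT night and 5 WT day libraries came from C57BL/6J mice. The titles of the libraries called WT day 4 and WT day 5 here both carry the number 4. Whether these libraries came from the same mouse is not stated. All mice were kept in 12 h of light and 12 h of dark with free food and water, and were killed 18 h (night) or 6 h (day) after light on. Age, sex and pooling are not given in the sources used here, and nothing states that libraries of a group came from separate mice, so p-values measure only the spread between these libraries.

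Each homeodomain is a short fold of helices that binds DNA, and the third helix lies in the major groove. Residue 50 of the fold helps to set which bases a homeodomain prefers. In the developing hypothalamus such genes divide the tissue into regions: Nkx2-1 marks the basal part, Six3 the anterior forebrain, and the Dlx genes the progenitors of GABA neurons. Many stay on in adult neurons, where Zfhx3, for example, is known for its part in circadian rhythm of the suprachiasmatic nucleus.

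The coding bases for residues 47 to 55 are shown for genes of several classes, because the classes differ there in the codon of residue 50, which is in capitals. Each is read 5′ to 3′ on the coding strand from the GENCODE M21 transcripts (GRCm38).
Dlx1: atatggttcCAGaacaaacgctccaag
Lhx6: gtgtggtttCAAaactgccgagcgcgt
Lhx8: gtgtggtttCAGaactgcagggcccgc
Six3: aactggtttAAGaaccggcgacagcgc
Pbx2: aactggttcGGTaacaagcgaattcgc
Irx3: acctggttcGCCaacgcgcgccggcgc
Onecut3: aacttcttcATGaacgcccgtcgccgc
Pou3f1: gtctggttcTGCaaccggcggcagaag
The Dlx1 stretch lies at chr2:71532270-71532296 on the plus strand. The Pou3f1 stretch lies at chr4:124658853-124658879 and the Pbx2 stretch at chr17:34594807-34594833, both on the plus strand. A single stretch is given for 33 of the 40 genes, and in 27 of these it lay in 1 exon. Zeb2, Zfhx2, Zfhx3 and Zfhx4 were left out beforehand, so 33 does not count all genes with such a stretch. Barhl1 and Barhl2 are not among the 33 either. The codon was CAG in 12 genes and CAA in 3, which were the NK-like genes other than Barhl1 and Barhl2, and the LIM genes. It was AAG in Six3 and Otx1, GCC in Irx3 and Irx5, and ATG in Onecut1 and Onecut3. Over the homeobox of 180 bases, Dlx1 and Dlx2 were identical at 73.9% of positions, Lhx6 and Lhx8 at 74.4%, and Hmx2 and Hmx3 at 87.8%.

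The genes lay partly in pairs. Dlx1 and Dlx2 were separated by 9.43 kb on chromosome 2, Dlx5 and Dlx6 by 9.24 kb on chromosome 6, and Hmx2 and Hmx3 by 3.85 kb on chromosome 7. RefSeq promoters of 300 bases (GRCm38.p6) were given for 29 of the genes, 38 promoters in all. Their median was 17 CG dinucleotides, against 7 over all 32851 promoters. The homeodomain core word TAATTA, which reads the same on both strands, occurred in 1 of the 38, against 5.29% of all promoters.

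Library totals ran from 32066289 to 48697647 counts. Ndn had 0.373, 0.596, 1.01, 0.69 and 0.365 CPM (counts scaled to library size with TMM factors) in KO night libraries and 0.725, 0.444, 0.745, 0.248 and 0.475 CPM in KO day libraries. It had 259.5, 266.4, 239, 345.6 and 297.5 CPM in WT night libraries and 247.7, 273.9, 31, 269.3 and 260.3 CPM in WT day libraries. Magel2 was at most 0.182 CPM in the KO libraries and at least 15.6 CPM in the WT libraries other than the library labelled WT day 3, where it was 2.15 CPM. The values of that library at both deleted genes contradict its label. They also lie far above those of all KO libraries, so they match neither genotype. The effect of that library is given beside the comparisons that use WT day. In 6 of the 20 libraries the 2 labels of time contradict each other: the groups follow the title, except for 1 library whose title carries no time. All 14 hypothalamus markers had counts in these libraries, and their summed level was 1081 to 1286 CPM in KO night, 787 to 1047 CPM in WT night, 1035 to 1243 CPM in KO day and 971 to 1142 CPM in WT day. At night 9 of the 14 were higher in KO than in WT. In the test described below 2 of the 14 rose at night, Oxt by 0.76 and Avp by 0.45 on the log2 scale, against 5.18% of all genes. Sim1, Nr5a1, Vip, Foxb1 and Fezf1 were lower, at -0.13 to -0.02, without passing. The summed level therefore does not stand for all 14 markers. In bulk tissue, fewer cells of a type and less RNA per cell cannot be told apart.

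Levels spanned more than 2 orders of magnitude. In all, 3 genes averaged at least 100 CPM, 14 had 10 to 100 CPM, 19 had 1 to 10 CPM and 4 were under 1 CPM. The 4 include Pou3f3, whose count of 0 does not stand for its level. Per kb of exon, the highest were Pbx3, a partner of Hox proteins, with a mean of 9.33 CPM per kb, Zfhx3 with 9.12 and Zfhx4, a large zinc finger homeodomain protein, with 9.05 CPM per kb. The ranges over libraries of these 3 genes overlapped. Per kb of gene span, over which reads appear to have been counted, Dlx1 was first with 4.3 CPM per kb, and Zfhx4 came at place 16 with 0.721, Pbx3 at 23 with 0.283 and Zfhx3 at 25 with 0.188 CPM per kb. Zfhx4 had 131.8, 127.4, 142.5, 142.1 and 145.6 CPM in KO night libraries, 146.6, 133.5, 153.9, 147.8 and 156.7 in WT night, 138.3, 145.4, 150.8, 131.7 and 143.6 in KO day, and 145.8, 146.6, 139, 137.6 and 140.2 in WT day. Pbx3 had 56.2, 49.9, 54.5, 57.8 and 62.3 CPM in KO night libraries, 63.6, 56.5, 72.3, 55.3 and 58.1 in WT night, 49.1, 62.4, 58.2, 46.2 and 58 in KO day, and 59.5, 55.6, 53, 55.1 and 56.7 in WT day. For both genes the 4 groups overlapped.

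**Figure D1:**
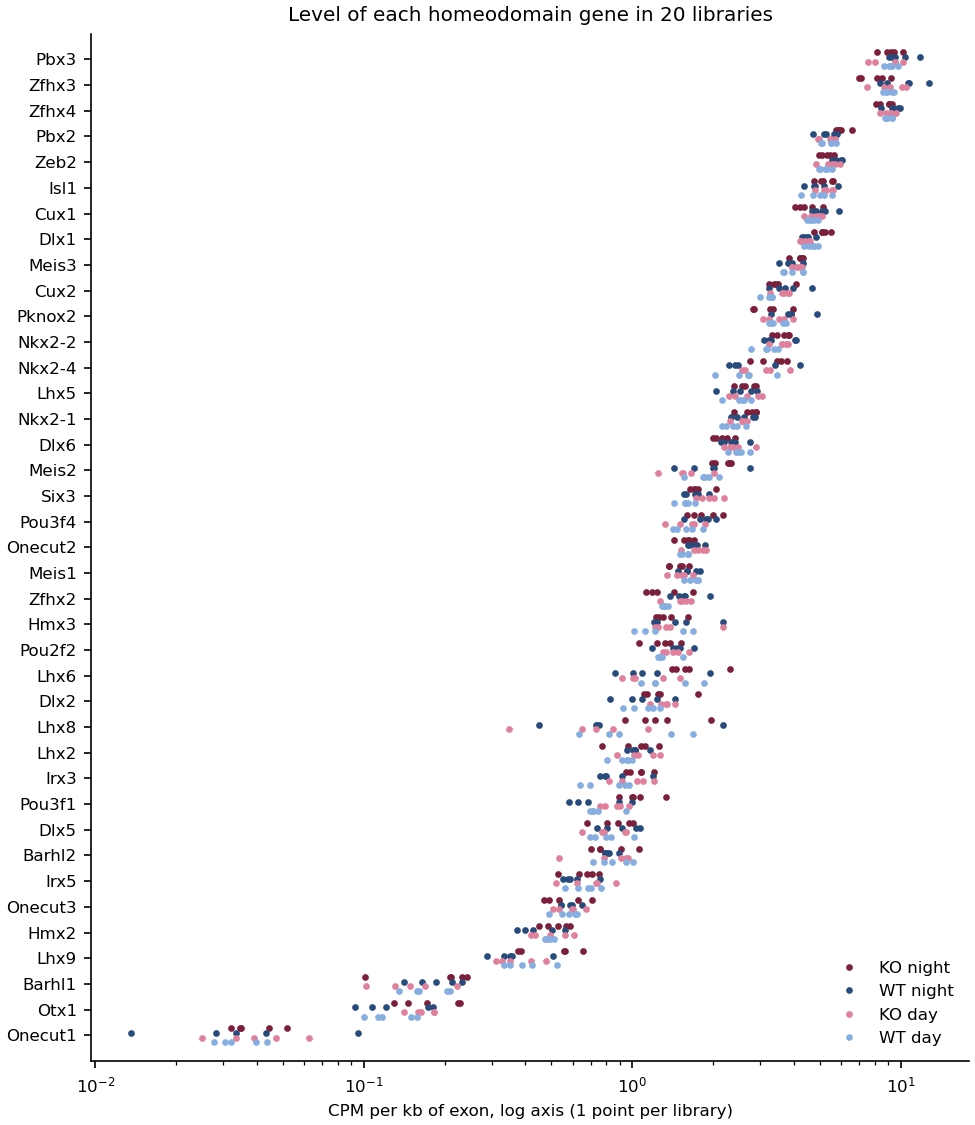
Level of each gene with counts in 20 libraries, as CPM per kb of exon on a log axis; 1 point is 1 library, coloured by group. Pbx3, Zfhx3 and Zfhx4 stand highest, near 9 CPM per kb, and Onecut1 lowest at 0.0396 CPM per kb.

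At the other end were Otx1, a homeodomain gene of the developing forebrain and midbrain, and Onecut1. Otx1 had 0.702, 0.936, 1.22, 1.24 and 0.791 CPM in KO night libraries, 0.986, 0.504, 0.942, 0.654 and 0.582 in WT night, 0.994, 0.865, 0.883, 0.992 and 0.763 in KO day, and 0.614, 0.632, 0.544, 0.857 and 0.816 in WT day. Onecut1 had 2 to 15 counts a library, a mean of 0.163 CPM, and was not tested. Pou3f3, a POU gene of the forebrain, had 0 counts in all 20 libraries. By counting error alone, a count of 0 would allow up to 3 counts, or 0.0616 to 0.0936 CPM. That limit cannot be used for Pou3f3. The gene lies wholly inside AC122898.1 on the same strand, which averaged 6.52 CPM. Of 301 protein-coding genes inside another on the same strand, 98.7% had no count, against 4.75% of 526 inside one on the opposite strand, so a count of 0 for Pou3f3 says nothing of its expression. Of the 39 neighbours in the order of levels, 36 overlapped in their ranges, so most adjacent places in the order do not differ beyond the spread. Only 4 genes were among the 10 highest both per kb of exon and per kb of whole gene span.

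The LIM genes Lhx6 and Lhx8, which specify GABA and cholinergic neurons of the basal forebrain, varied most among libraries with Onecut1. Lhx8 had 4.98, 3.09, 2.83, 2.39 and 3.41 CPM in KO night libraries, 1.86, 1.87, 5.52, 1.9 and 1.14 in WT night, 2.9, 1.64, 1.85, 0.882 and 2.15 in KO day, and 2.07, 2.26, 1.61, 3.52 and 4.25 in WT day. WT night 3 was far above the other WT night libraries. The within-group coefficient of variation was 46.1% for Lhx8 and 25.3% for Lhx6, against a median of 12.1% over the 38 tested genes. Isl1, which marks arcuate neurons among others, was steady at 20.6 ± 1.43 CPM in KO night and 19.8 ± 2.23 CPM in WT night, and at 20.9 ± 1.27 CPM in KO day and 19.6 ± 1.91 CPM in WT day (SD, n = 5 each).

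**Figure D2:**
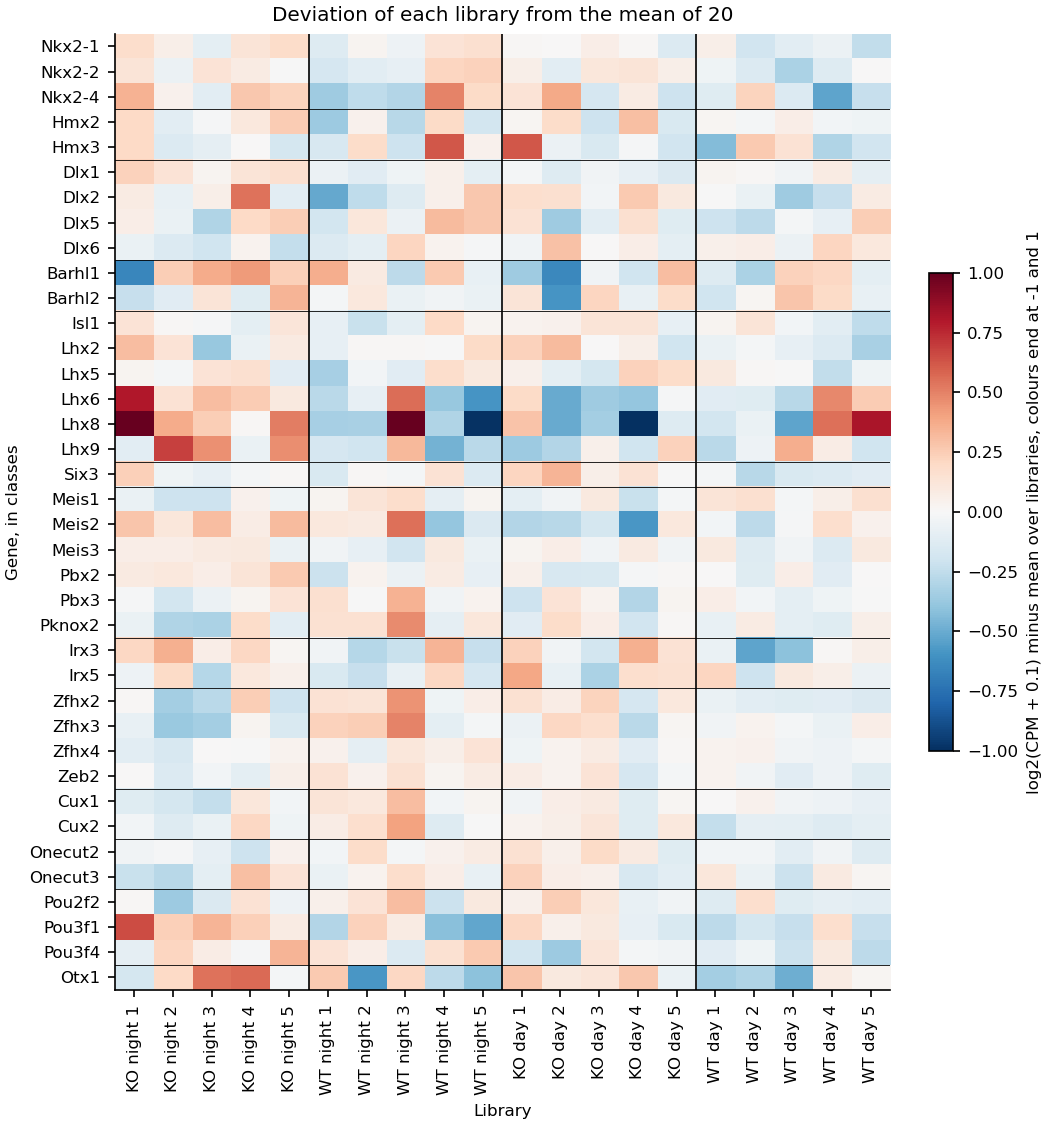
Deviation of 38 genes in each library from their mean over 20 libraries, in log2(CPM + 0.1), with genes in classes down the page and groups across it. WT night 3 is high in Zfhx2, Zfhx3, Pknox2, Cux1 and Cux2, as in Lhx6, Lhx8 and Meis2; Lhx8 reaches past the colour scale in 3 libraries.

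The first comparison asks what the double deletion does at night. At night, 6 of the 38 genes passed the test (15.8%), against 11.9% of all 22181 genes tested, a share near the background. Of these, 3 rose (5.18% of all genes), Dlx1, Pou3f1 and Pbx2, and 3 fell (6.77% of all genes), Zfhx3, Cux1 and Pknox2, by edgeR's quasi-likelihood test with Benjamini-Hochberg adjustment over all genes. The groups overlapped in their libraries for all 6 genes, and 0 of the 38 genes had groups without overlap, against 5.07% of all genes. The median log2 change was 0.05 over the 38 genes and 0.01 over all genes.

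Dlx1, a factor of GABA neuron progenitors and interneurons, had 29.6, 27.6, 25.7, 27.5 and 28.1 CPM in KO night libraries, against 24.2, 23.2, 24.4, 26.1 and 23.5 CPM in WT night libraries. The lowest KO night library lay just below the highest WT night library. The log2 change was 0.19 ± 0.0466 (SE) with an adjusted p of 0.0193 in edgeR. Dlx1 lies within Dlx1as on the opposite strand, which had 40.2 ± 2.31 CPM in KO night and 36.7 ± 1.77 CPM in WT night (SD, n = 5 each), with an adjusted p of 0.0595 in edgeR. At night 5.18% of all genes tested passed and rose. Of the 3 GABA neuron markers, Gad1 and Slc32a1 rose at night by 0.21 and 0.27 on the log2 scale. Their summed level, with Gad2, was 478 to 579 CPM in KO night and 452 to 505 CPM in WT night. The 7 cortex and hippocampus markers were all higher at night in KO, as were 11310 of all 22181 genes. The summed level of the 7 was 36.3 to 47.2 CPM in KO night and 31.8 to 37.1 CPM in WT night. Of these markers 1 passed, Slc17a7, which rose by 2.07 on the log2 scale (adjusted p = 0.0319, edgeR). Across 20 libraries Dlx1 and the mean of these markers had r = 0.36 and rho = 0.23, with r = 0.07 without the 2 farthest. The permutation p was 0.118 for r and 0.328 for rho (adjusted p = 0.717 and 0.83). With the mean of the striatum markers, Dlx1 had r = 0.41 and rho = 0.56, with r = 0.37 without the 2 farthest. There the permutation p was 0.0726 for r and 0.0112 for rho (adjusted p = 0.682 and 0.309). With groups set by the time field, r was 0.82 for cortex and hippocampus markers (adjusted permutation p = 0.00304). It was 0.69 for striatum markers (adjusted permutation p = 0.0357). Those groups join KO night 1, 2 and 3 to KO day libraries, and KO day 1 and 2 to KO night libraries. Differences between the groups by title therefore stay in both of these r values. The part of these marker lists in the 6 night calls was not tested.

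The other Dlx genes, which act with Dlx1 in GABA neurons, did not pass. Dlx2 had 3.62, 3.23, 3.56, 5.03 and 3.16 CPM in KO night libraries, against 2.36, 2.85, 3.11, 3.54 and 4.13 CPM in WT night libraries, and the groups overlapped (log2 change 0.22 ± 0.138, adjusted p = 0.29 in edgeR). Dlx5 had 2, 1.82, 1.53, 2.21 and 2.28 CPM in KO night libraries, against 1.67, 2.07, 1.83, 2.41 and 2.33 CPM in WT night libraries. Dlx6 had 5.36, 5.11, 4.88, 5.75 and 4.74 CPM in KO night libraries, against 5.09, 5.23, 6.54, 5.74 and 5.56 CPM in WT night libraries. Both pairs of groups overlapped, and the log2 changes were -0.07 ± 0.141 for Dlx5 and -0.12 ± 0.0889 for Dlx6.

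Pou3f1, a POU factor known also from myelinating glia, had 5.16, 3.86, 4.13, 3.85 and 3.44 CPM in KO night libraries, against 2.63, 3.83, 3.45, 2.41 and 2.24 CPM in WT night libraries. Its log2 change of 0.49 ± 0.138 was the largest of the 6 (adjusted p = 0.0281, edgeR). Of 7 oligodendrocyte markers 2 rose at night and 0 fell, against 5.18% and 6.77% of all genes. The summed level of the 7 was 2135 to 2858 CPM in KO night and 1976 to 2446 CPM in WT night. The part of these markers in the change of Pou3f1 was not tested. Pbx2, a cofactor of Hox and Meis proteins, had 21.3, 21.5, 20.9, 21.9 and 24 CPM in KO night libraries, against 17.2, 20.5, 19.2, 21.1 and 18.9 CPM in WT night libraries. Only WT night 4 reached into the KO night range. Its log2 change was 0.18 ± 0.0591 (adjusted p = 0.0494, edgeR). Pbx2 passed in 4 of the 20 fits that leave out 1 library, with adjusted p up to 0.154, and was lost with RLE factors, with no filter, with the replicate block (adjusted p = 0.074, edgeR) and with the span trend removed.

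The 3 genes that fell are long. Zfhx3 (chr8:107942644-108961630, plus strand) spans 1019 kb, Cux1 319.4 kb and Pknox2 256.4 kb. Zfhx3 had 179.5, 146.6, 149.9, 192.7 and 170.7 CPM in KO night libraries, against 222.6, 225, 267.3, 176.5 and 187.3 CPM in WT night libraries. WT night 1, 2 and 3 stood above all KO night libraries, while WT night 4 and 5 lay inside their range. The log2 change was -0.36 ± 0.0973 (adjusted p = 0.0253, edgeR). By day it had 181.4, 219, 212.4, 156.9 and 191.6 CPM in KO day libraries, against 185.2, 194.5, 187, 180.5 and 198 CPM in WT day libraries, a narrower WT range inside a wider KO range. Cux1, a CUT factor of cortical neurons and many other cells, had 87.5, 84.5, 80.7, 103.3 and 93.3 CPM in KO night libraries, against 104.4, 102.4, 118.2, 93.4 and 97.2 CPM in WT night libraries. Its log2 change was -0.2 ± 0.0639 (adjusted p = 0.0445, edgeR). Cux1 passed in 14 of the 20 fits that leave out 1 library, with adjusted p up to 0.156 in edgeR. It was lost with no filter, with the replicate block and with the span trend removed. Pknox2, a TALE partner of Pbx proteins, had 34.7, 29.4, 29.1, 41.2 and 33.8 CPM in KO night libraries, against 40.3, 40.4, 50.5, 34.1 and 39.3 CPM in WT night libraries. Its log2 change was -0.28 ± 0.0936 (adjusted p = 0.0495, edgeR). Pknox2 passed in 5 of the 20 fits that leave out 1 library, with adjusted p up to 0.183, and was lost with a filter at a mean of 1 CPM and with the replicate block (adjusted p = 0.086, edgeR).

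**Figure D3:**
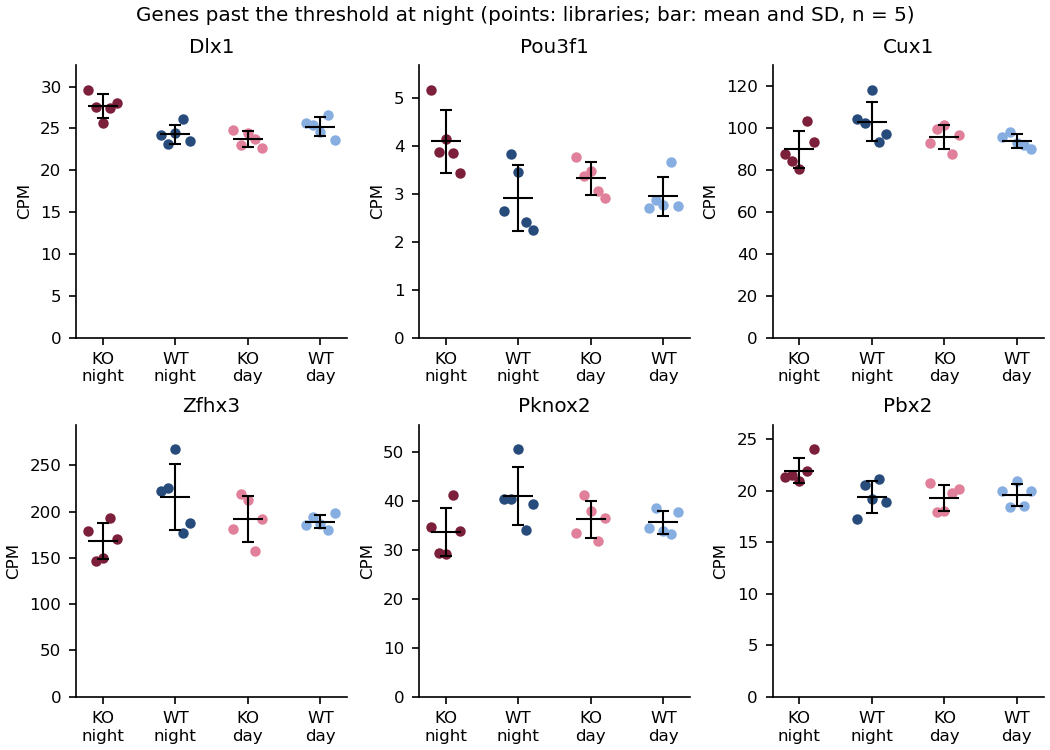
CPM of the 6 genes past the threshold at night in each library, with mean and SD (n = 5 a group). Dlx1, Pou3f1 and Pbx2 are higher, and Zfhx3, Cux1 and Pknox2 lower, in KO night than in WT night, and the groups overlap for each gene.

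Gene span moved with the change at night. Of all genes over 100 kb, 31.1% fell and 0.407% rose; of genes of 10 to 100 kb, 4.5% fell and 4.91% rose; of genes under 10 kb, 1.79% fell and 7.17% rose. Of the 9 homeodomain genes over 100 kb, 8 had a lower mean in KO night and 1, Meis2, a higher one. Their median log2 change was -0.13, against -0.18 over all genes over 100 kb. Of the 16 under 10 kb, 13 were higher (median 0.13, against 0.08 over all genes under 10 kb). The median deviation of genes over 100 kb from their mean over 20 libraries was -0.06, -0.18, -0.15, 0 and -0.05 in KO night 1 to 5, and 0.11, 0.06, 0.23, -0.05 and 0.04 in WT night 1 to 5 on the log2 scale. With the trend on span removed, 3 of the 38 genes passed, against 9.08% of all genes: Dlx1 at 0.18, Pou3f1 at 0.48 and Meis2. Zfhx3 was then at -0.04, Pknox2 at -0.08 and Cux1, with its direction turned, at 0.02, none of them past the threshold. The span classes were chosen after the values were seen.

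**Figure D4:**
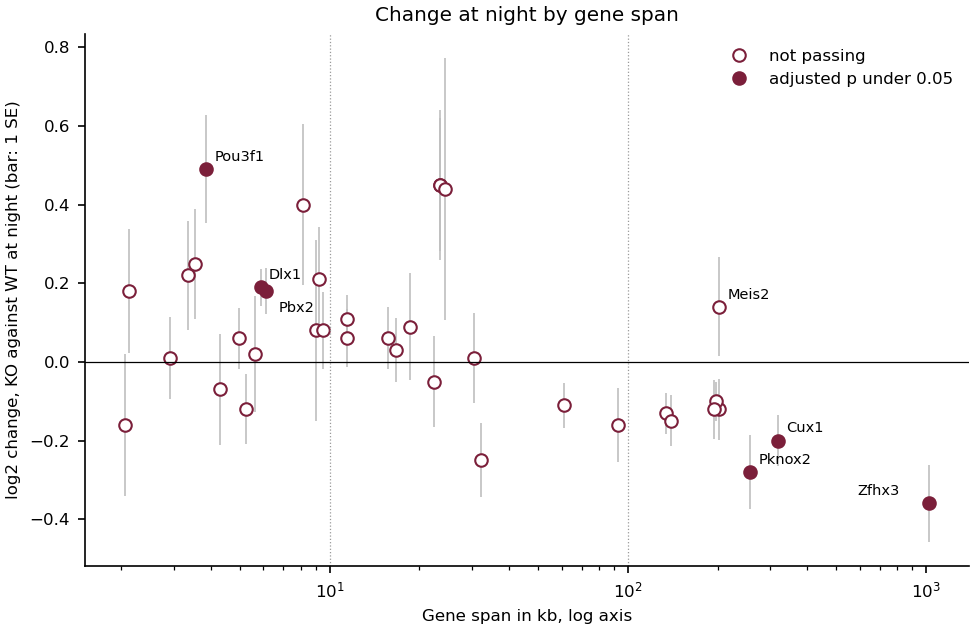
log2 change of 38 genes at night, KO against WT, by gene span in kb on a log axis; bars are 1 SE and filled points passed the test. The 3 genes that fell span 256.4 to 1019 kb, and the 3 that rose span under 10 kb.

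The night calls rest on few libraries. None of the 38 genes passed without WT night 1, without WT night 3 or without KO night 2, and only Dlx1 passed without KO night 3; in these 4 fits 1.28%, 0.546%, 1.32% and 2.29% of all genes passed. None passed with the time field in place of the title (0.0179% of all genes), nor in the 14 libraries without a contradiction of time labels (0.0263%). Without WT night 1, 2 and 3, none passed (0.0479% of all genes), and the log2 changes were 0.16 for Dlx1, 0.82 for Pou3f1 and -0.12 for Zfhx3. Without the library labelled WT day 3, 4 of the 38 passed (10.3% of all genes), Dlx1, Pou3f1, Cux1 and Zfhx3, with Pbx2 at an adjusted p of 0.0568 and Pknox2 at 0.0521 in edgeR. DESeq2 called 8 of the 38 (15.7% of all genes), adding Lhx9 and Zfhx2.

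By day, 0 of the 38 genes passed in edgeR, against 0.113% of all genes. In edgeR 7 of the 38 had an unadjusted p under 0.05, against 2133 of all 22181 genes. DESeq2 called Six3 alone (0.83% of all genes). Six3, a factor of the anterior forebrain and eye, had 11, 12, 9.91, 10.5 and 9.45 CPM in KO day libraries, against 9.34, 7.82, 8.53, 8.6 and 8.76 CPM in WT day libraries. The groups did not overlap, which held for this gene alone of the 38 and for 2.72% of all genes. The log2 change was 0.3 ± 0.0781 (adjusted p = 0.13, edgeR), and 0.31 ± 0.0854 without the library labelled WT day 3 (adjusted p = 0.216, edgeR). Without the library labelled WT day 3, the count by day was also 0, against 0.121% of all genes.

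**Figure D5:**
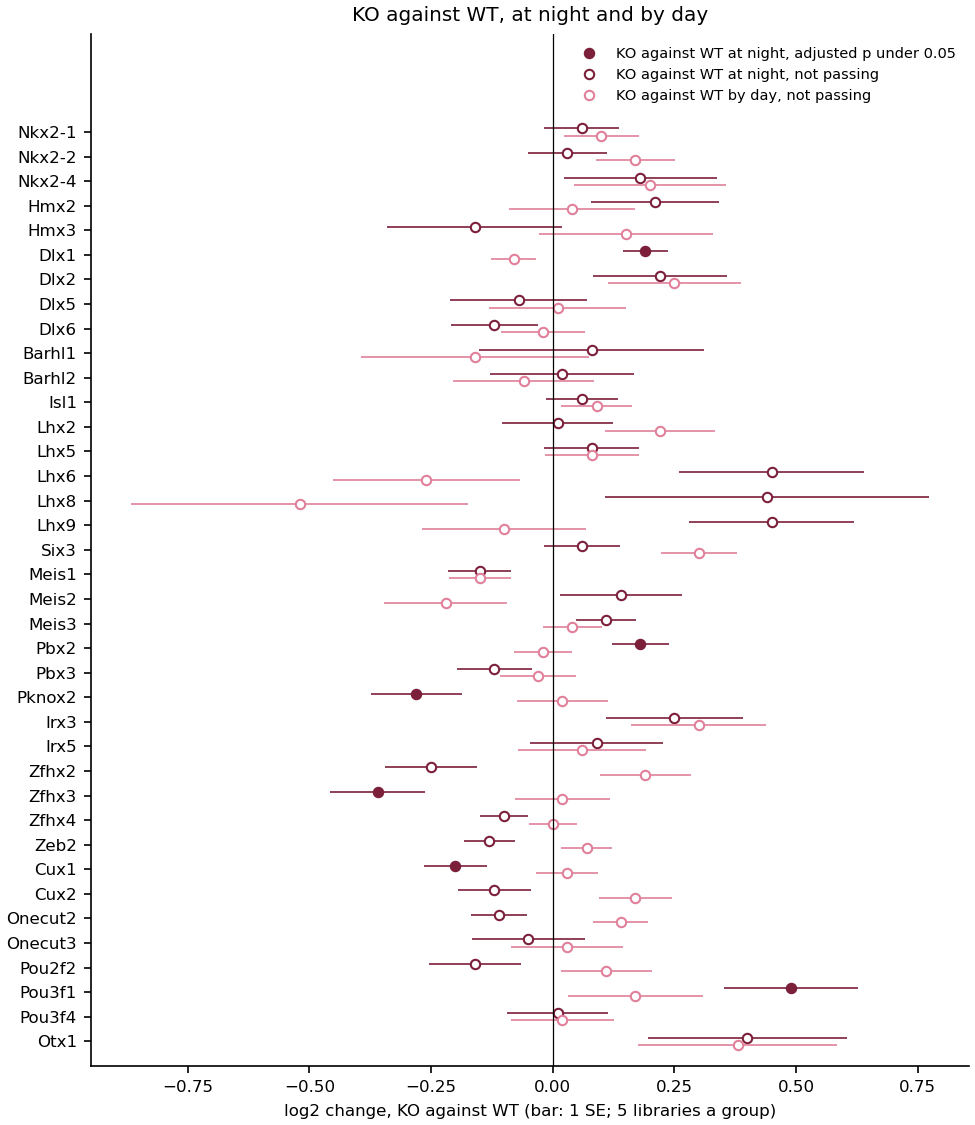
log2 change of 38 genes, KO against WT, at night and by day, with 1 SE (5 libraries a group); filled points passed the test. At night 6 genes passed and by day 0, and by day Six3 stands at 0.3.

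Averaged over both times, 0 of the 38 genes passed in edgeR, against 1.32% of all genes. In edgeR 7 of the 38 had an unadjusted p under 0.05, against 4353 of all 22181 genes. DESeq2 called 3 (4.61% of all genes): Pou3f1, Meis1 and Six3. In edgeR their log2 changes were 0.33 ± 0.098 for Pou3f1, -0.15 ± 0.0455 for Meis1, a TALE factor, and 0.18 ± 0.0555 for Six3, with adjusted p of 0.0773, 0.0803 and 0.0882. Without the library labelled WT day 3, the count was also 0, against 0.867% of all genes.

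In edgeR the regional Nkx2, Barhl, Hmx, Iroquois, Onecut and remaining LIM genes passed in no comparison of KO with WT. This holds for the fit of all 20 libraries with no added term. Lhx9 changed there at night by 0.45 ± 0.169 on the log2 scale (adjusted p = 0.077, edgeR). Lhx9 did pass at night without KO night 1, without KO night 4, and with the replicate block once the span trend was removed. Nkx2-1, needed to form the basal hypothalamus, averaged 7.75 ± 0.607 CPM in KO night and 7.43 ± 0.642 CPM in WT night, and 7.22 ± 0.377 CPM in KO day and 6.74 ± 0.557 CPM in WT day (SD, n = 5 each). Hmx2 and Hmx3, needed for growth hormone releasing hormone neurons, changed at night by 0.21 ± 0.132 and -0.16 ± 0.18 on the log2 scale, without passing. Both lie inside the span of Fgfr2 on the opposite strand, which averaged 614 CPM, against 1.58 CPM for Hmx2 and 2.07 CPM for Hmx3; whether reads of Fgfr2 add to them was not tested. Irx3, a TALE factor, had log2 changes of 0.25 ± 0.14 at night and 0.3 ± 0.139 by day, and 0.25 ± 0.147 by day without the library labelled WT day 3.

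Night was next set against day within each genotype. In KO, 0 of the 38 passed in edgeR, against 0.0721% of all genes. In edgeR 8 of the 38 had an unadjusted p under 0.05, against 3917 of all 22181 genes. DESeq2 called 1 (2.48% of all genes). Dlx1, at the values above for KO night and at 24.8, 23, 24.5, 23.7 and 22.7 CPM in KO day libraries, did not overlap between night and day (log2 change 0.22 ± 0.0464, adjusted p = 0.0513, edgeR). Of the 38 genes, 2 had groups without overlap, Dlx1 and Pbx2, against 2.51% of all genes; Pbx2 had 20.7, 17.9, 18, 19.8 and 20.1 CPM in KO day libraries (log2 change 0.18 ± 0.0588, adjusted p = 0.128, edgeR). Meis2, a TALE factor of striatal and olfactory neurons, had 27.4, 24.4, 27.9, 23.8 and 28.1 CPM in KO night libraries, against 18.4, 18.6, 19.9, 15 and 24.2 CPM in KO day libraries. Its groups overlapped by 1 library (log2 change 0.45 ± 0.127, adjusted p = 0.0955, edgeR). In WT, 0 of the 38 passed in edgeR, against 0.275% of all genes. In edgeR 6 of the 38 had an unadjusted p under 0.05, against 3533 of all 22181 genes. DESeq2 called 0 (1.84% of all genes). The edgeR count was also 0 without the library labelled WT day 3 (0.0536% of all genes).

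The difference between the genotype effects at night and by day was tested as an interaction. None of the 38 genes passed in edgeR, nor did any of the 22181 genes (0%). In edgeR 12 of the 38 had an unadjusted p under 0.05, against 4910 of all 22181 genes. DESeq2 called 3, Dlx1, Zfhx2 and Onecut2 (5.36% of all genes). For Dlx1 the interaction was 0.27 ± 0.0658 on the log2 scale (adjusted p = 0.0588, edgeR) and for Zfhx2 -0.45 ± 0.133 (adjusted p = 0.0822, edgeR). Without the library labelled WT day 3, the count in edgeR was also 0 (0% of all genes), with Dlx1 at 0.27 ± 0.0699 (adjusted p = 0.103, edgeR). In edgeR the night calls are therefore not shown to differ from the effects by day, while DESeq2 called that difference for Dlx1.

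Relations across libraries were computed on log2 CPM centred within groups. None of 152 relations between a gene and the mean of thalamus, cortex and hippocampus, striatum, or septum and preoptic markers passed after Benjamini-Hochberg adjustment; 10 had an unadjusted permutation p under 0.05. Zfhx4 with septum and preoptic markers had the smallest p of r, with r = -0.68 and rho = -0.67 over 20 libraries (permutation p = 0.00101 and 0.00165, adjusted p = 0.154 and 0.125) and r = -0.57 without the 2 farthest libraries. Pbx3 with the same markers had the smallest p of rho, with rho = -0.7 (permutation p = 0.00068, adjusted p = 0.103). Without the library labelled WT day 3, 0 relations passed. Of 703 pairs of the genes, a family computed after the values were seen, 45 passed, 41 of them with a positive r; without the library labelled WT day 3, 45 passed. Of the 36 pairs with both genes over 100 kb, 18 passed. No share of passing pairs over all genes, or over all genes above 100 kb, is available beside these counts. The counts are therefore not shown to be particular to the homeodomain genes. Pknox2 and Zfhx3 had r = 0.92 and rho = 0.91 over 20 libraries (permutation p = 1e-05 for both, the smallest the resamples can give, adjusted p = 0.000639 and 0.00527), and r = 0.9 without the 2 farthest. These are genes that also move with the deviation of long genes given above. Lhx6 and Lhx8, both short of 100 kb, had r = 0.87 and rho = 0.66 (permutation p = 1e-05 and 0.00165, adjusted p = 0.000639 and 0.04) and r = 0.78 without the 2 farthest libraries.

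Of a second list of 124 other homeodomain genes, 82 were tested. At night 2 rose and 9 fell (13.4%, against 11.9% of all genes). Tshz2 fell by 0.35 ± 0.0931 on the log2 scale, to 85.4 ± 7.42 CPM in KO night, against 108.8 ± 21.2 CPM in WT night (SD, n = 5 each; adjusted p = 0.0245, edgeR). Prox2, Prrx2, Zhx2 and Pou2f1 were among the others that fell, with log2 changes of -0.34, -0.84, -0.29 and -0.2. Averaged over both times 1 rose and 0 fell (1.22%, against 1.32% of all genes): Otp, needed for neuroendocrine neurons of the paraventricular nucleus, at 0.26 ± 0.0602 (adjusted p = 0.036, edgeR). Otp passed in 12 of the 20 fits that leave out 1 library, and did not pass without the library labelled WT day 3 (0.25 ± 0.0621, adjusted p = 0.0524, edgeR). In WT, 1 of the 82 passed between night and day (1.22%, against 0.275% of all genes). Nkx6-2, a factor of oligodendrocytes, rose at night by 0.39 ± 0.0743, to 34.4 ± 3.74 CPM in WT night, against 26.3 ± 2.66 CPM in WT day (adjusted p = 0.0262, edgeR). It did not pass without the library labelled WT day 3 (0.34 ± 0.0715, adjusted p = 0.0739, edgeR).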

How the data were processed

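Hypothalamic total RNA of 20 libraries was analysed as deposited: 1 table of counts per library, which the authors made with HISAT2 and featureCounts on mm10, per the submitters' processing notes (versions not given in the sources used here). Of 53801 identifiers, 53706 matched GENCODE M21, which gave symbols and lengths. The values of the WT night 3 table, deposited in another text layout, were read as counts. Counts inside same-strand genes were mostly 0, so values appear to be counted by strand over gene spans. In edgeR 4.0.16 (R 4.3.3), genes were filtered with filterByExpr at a minimum count of 10, scaled by TMM, and fitted with 4 group means over all 20 libraries by the quasi-likelihood test, adjusted by Benjamini-Hochberg at 0.05; SE is the log2 change divided by the root of F. The fit was tested on simulated data. Relations used log2 CPM with a prior count of 2 and 100000 permutations, two-sided. Alternatives were DESeq2 1.42.0, other scaling and filters, other time labels, a replicate block, removal of a span trend, and leaving out libraries. Named genes were those past the threshold in any comparison, the Dlx family, the 3 highest and 3 lowest per kb, and up to 10 other homeodomain genes by smallest p, of which some, like some sequences, are not reported here; Lhx6, Lhx8, Isl1, Six3, Meis1, Meis2 and the others were added after their values were seen. The members and lists were chosen with earlier results of these data known. Intervals and floors cover counting error only.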

Additional observations from a re-analysis of the deposited data

Results flagged for a closer look

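For 39 genes in each of 4 groups of 5 libraries, 156 cases that share the same 20 libraries, 12 had 1 library far from the other 4; chance gives about 1 in 20 for a single case. Hmx3 had 3.17 CPM in KO day 1, above the other 4 libraries of its group at 1.77 to 2.01 CPM. Dlx2 had 5.03 CPM in KO night 4, above the other 4 libraries of its group at 3.16 to 3.62 CPM. Barhl1 had 0.395 CPM in KO night 1, below the other 4 libraries of its group at 0.821 to 0.949 CPM. Barhl2 had 2.07 CPM in WT night 2, above the other 4 libraries of its group at 1.83 to 1.89 CPM. Lhx6 had 11.1 CPM in KO night 1, above the other 4 libraries of its group at 6.78 to 7.84 CPM. Lhx8 had 5.52 CPM in WT night 3, above the other 4 libraries of its group at 1.14 to 1.9 CPM. Six3 had 11.2 CPM in KO night 1, above the other 4 libraries of its group at 8.96 to 9.58 CPM. Meis3 had 12.2 CPM in KO night 5, below the other 4 libraries of its group at 13.4 to 13.7 CPM. Cux2 had 41.2 CPM in KO night 4, above the other 4 libraries of its group at 32.7 to 35.1 CPM. Cux2 had 30.2 CPM in WT day 1, below the other 4 libraries of its group at 32.6 to 33.5 CPM. Pou2f2 had 12.7 CPM in WT day 2, above the other 4 libraries of its group at 10.3 to 10.6 CPM. Pou3f1 had 3.66 CPM in WT day 4, above the other 4 libraries of its group at 2.69 to 2.87 CPM. KO night 1 was set apart for Barhl1, Lhx6 and Six3, and KO night 4 for Dlx2 and Cux2. No gene had all KO libraries moved one way from WT at night and the opposite way by day.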

How the results depend on the processing

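Of the 38 tested genes, the count past the threshold at night was 6 (11.9% of all genes). It was 0 with the time field (0.0179%), in libraries whose time labels agree (0.0263%), and without WT night 1, 2 and 3 (0.0479%). It was 3 with the replicate block (7.62% of all genes) and 3 with the span trend removed (9.08%). Over the fits that leave out 1 library it was 0 to 9 (0.546% to 19.5% of all genes). The 9 came without KO night 4 (19%). DESeq2 gave 3 averaged over both times (4.61% of all genes) and 1 by day (0.83%). It gave 1 for night against day in KO (2.48%) and 3 for the interaction (5.36%). For each of these edgeR gave 0. Night against day in KO gave 2 without WT night 1, 2 and 3 (0.601% of all genes), 2 with the span trend removed (0.442%) and 1 with the replicate block and span trend removed (0.176%). Averaged over both times, the counts over the fits that leave out 1 library were 0 to 3 (0.21% to 5.65% of all genes). By day they were 0 (0.067% to 0.327%). For night against day they were 0 in WT (0.0403% to 0.801%) and 0 to 1 in KO (0% to 1.47%). For the interaction they were 0 to 4 (0% to 6.95%). Cux1 turned to 0.02 at night with the span trend removed, with and without the replicate block. Same-numbered libraries correlated from -0.167 to 0.303 in 30 pairs, 3 of them over 0.1. Differently numbered libraries reached -0.301 (WT night 3 and KO day 4) and 0.251 (WT night 4 and KO day 1). A pairing by number is not seen in these correlations, which cannot exclude one. The median level was 1.62 CPM per kb of exon and 0.392 CPM per kb of span, and 1.61 to 1.63 when 1 library was left out. Relations with region markers passed in 2 cases with time-field groups, both of Dlx1, where differences between the groups by title stay in the values. The causes of these moves were not tested, beyond fewer libraries where libraries were left out. Genes under 1 CPM rest on few counts.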
